A study of Pinus pinaster with 21 samples.

Results

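A group of 165 small RNAs of middle abundance was followed through seedling roots of the conifer Pinus pinaster (maritime pine) across water and ammonium supply, sampling time and repeats of the experiment. The members were chosen by their level alone: each had a count above 0 in all 17 of the libraries used, and a median over these libraries of at least 100 and below 600 CPM, the count scaled by the total of its own library. Of the 32711 identifiers in the series, 416 were listed in all 17 libraries, and the 165 members are the middle of these, with 108 of the 416 at a median of 600 CPM or more and 143 below 100 CPM. Middle abundance is thus meant within the constantly listed identifiers. A small RNA that any treatment or experiment removed from a library's list could not be a member.

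The 7 groups were roots taken before irrigation (0 h), roots taken 2 h after water, 0.1 mM NH4Cl or 3 mM NH4Cl, and roots taken 24 h after the same 3 irrigations of 80 mL. Every group came from 1-month-old seedlings of the Segura-Alcaraz provenance that had stood for 3 days on nutrients without nitrogen, so the water roots are nitrogen-starved roots as well. Each library pooled the roots of 10 seedlings, and the whole experiment was run 3 times, which gives the replicate numbers. The 17 libraries were 1 before irrigation (experiment 2), 3 in each group at 2 h, 3 of water at 24 h, 2 of 0.1 mM at 24 h (experiments 2 and 3) and 2 of 3 mM at 24 h (experiments 1 and 3). This leaves 5 libraries of experiment 1, 6 of experiment 2 and 6 of experiment 3.

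Plant small RNAs include microRNAs, which are cut from hairpin precursors and direct the cleavage or reduced translation of matching messenger RNAs, and small interfering RNAs, which are cut from double-stranded RNA and direct silencing of transcripts and chromatin. In roots of flowering plants several microRNA families respond to nitrogen supply and act on transporters and transcription factors. Ammonium is a main nitrogen source for conifers in forest soils. The deposited table gives each small RNA as a serial identifier paired with no name, sequence or position, so no family, target, seed or role is assigned to a member, and no sequence is printed.

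Totals of the 17 libraries ran between 5947601 and 9603954 counts, and the 416 shared identifiers held between 51.5% and 62.3% of them. No count between 1 and 4 occurs in the table, the lowest count above 0 being 5, so a 0 is read as not listed and not as absent. The other 4 libraries, with totals between 1180505 and 6982894, were not used to choose the members and are described at the end. In pooled roots, fewer cells of a type and less of a small RNA per cell cannot be told apart.

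The members spanned nearly the whole permitted range of levels. Their median CPM ran between 100.3 and 593.0, with a median over the members of 223.0, and 66 of the 165 lay between 100 and 200 CPM, 46 between 200 and 300, 25 between 300 and 400, 11 between 400 and 500 and 17 between 500 and 600. The median count behind a member was between 737 and 4697 (median over members 1685), and the lowest single count of any member in any of the 17 libraries was 212. At this depth counting error is small: the coefficient of variation (CV, the SD over the mean) expected from counting alone had a median of 0.0244.

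By median CPM the 10 highest members were MIR_1096 (593.0), MIR_4769 (583.5), MIR_4772 (583.0), MIR_747 (578.6), MIR_358 (578.2), MIR_4770 (570.2), MIR_1087 (569.9), MIR_4767 (554.6), MIR_1098 (548.3) and MIR_4763 (544.7). Their order was not stable from library to library. MIR_1096 ranked between 3 and 15 among the 165 in single libraries, whereas MIR_358 ranked between 1 and 63, and neighbours in this list differed by less than their spread over libraries. The upper limit runs through a continuous series of levels: MIR_1096, MIR_4769 and MIR_4772 were the nearest inside it, and MIR_849 (606.3), MIR_851 (641.6) and MIR_1092 (645.8) the nearest outside. At the lower limit MIR_1307 (100.3), MIR_5019 (102.8) and MIR_4949 (103.5) were the nearest inside, and MIR_4970 (99.7), MIR_1299 (99.5) and MIR_5095 (99.5) the nearest outside. A further 283 identifiers had a median CPM within the limits but were missing from the list of at least 1 of the 17 libraries, 82 of them from a single one.

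**Figure D1:**
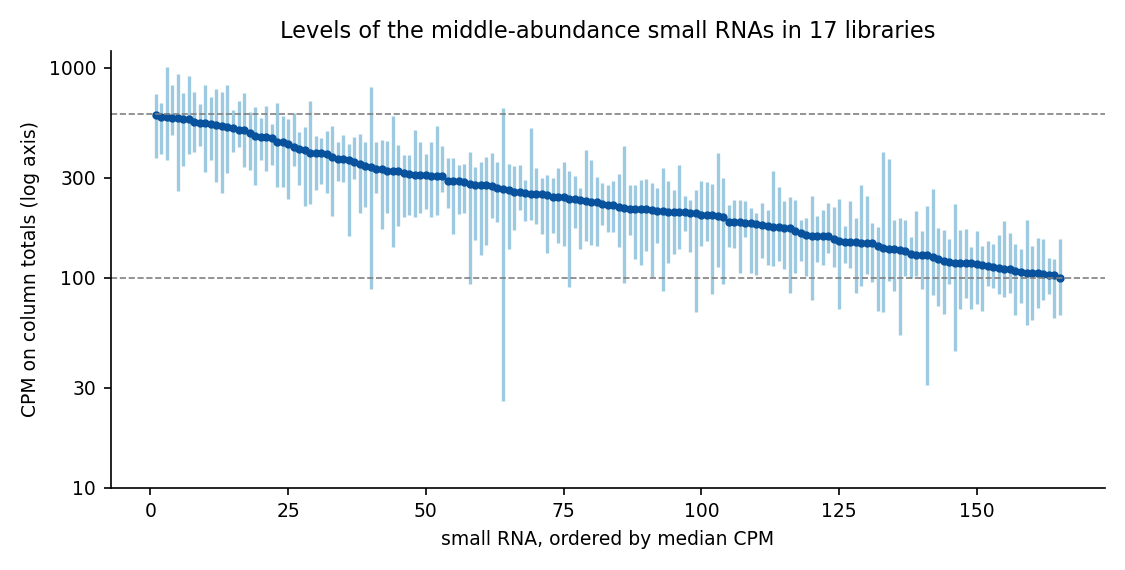
Median CPM (points) and lowest to highest CPM over the 17 libraries (lines) of the 165 members, ordered by median on a log axis, with dashed lines at the limits of 100 and 600 CPM. Levels fall smoothly across the range, and a few members, such as MIR_4510, have 1 library far below the rest.

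Most values of the members lay near the member's own median across treatments, times and experiments, as did those of all shared identifiers. CPM was scaled by TMM factors (trimmed mean of M values), which make the bulk of the 416 shared identifiers equal between libraries. On TMM-scaled CPM 98.8% of the members' values lay within 1 log2 unit of the member's own median, beside 98.4% for all 416. The highest library was less than 2 times the lowest for 113 of the 165 members (68.5%), beside 64.4% of all 416. It was more than 4 times the lowest for 8 members, beside 29 of the 416. The CV of TMM-scaled CPM had a median of 0.144 over the members and ran between 0.053 and 0.538, against a median of 0.159 for the more abundant and 0.169 for the less abundant shared identifiers. These are descriptions of 3 bands chosen by level, with no test between them.

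On column totals the steadiest members were MIR_1109 (CV 0.100), MIR_406 (0.100), MIR_4874 (0.103), MIR_4820 (0.109) and MIR_357 (0.117), and the most variable were MIR_4643 (0.584), MIR_1205 (0.551), MIR_1608 (0.517), MIR_74 (0.475) and MIR_4510 (0.456). MIR_1608 and MIR_74 varied mainly between experiments, and MIR_4643 both between and within them, as described below. MIR_1205 ran between 63.8 and 377 TMM-scaled CPM, and within its highest group, 0.1 mM at 2 h, it stood at 199.9, 209.8 and 377 in experiments 1, 2 and 3. MIR_4510 had 1 library far below the rest: it stood at 26.0 TMM-scaled CPM in 3 mM at 2 h of experiment 3, against 223 to 312 in the other 5 libraries of that experiment. Its CV of TMM-scaled CPM was 0.388 with that library and 0.302 without it, and the other 16 libraries ran between 216 and 559. On TMM-scaled CPM other members were the steadiest, MIR_4524 (CV 0.053), MIR_4538 (0.065), MIR_1102 (0.066), MIR_1098 (0.069) and MIR_4771 (0.070), and none of the 5 steadiest on column totals is among these.

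As a group the members made up between 3.05% and 5.20% of a library's counts, with a median of 4.46%. The 3 smallest shares all belonged to experiment 1, at 3.05% in 3 mM at 24 h, 3.46% in 0.1 mM at 2 h and 3.55% in 3 mM at 2 h, while its water libraries held 4.46% at 2 h and 4.02% at 24 h. Experiment 2 ranged from 4.53% to 5.20% and experiment 3 from 4.27% to 4.68%. At 2 h of experiments 2 and 3, 0.1 mM held 5.20% and 4.68%, above the water libraries, and 3 mM 4.54% and 4.27%, below them, against 4.59% and 4.37% in water. At 24 h every ammonium library held less than the water library of its experiment. In experiment 1 this was 3.05% in 3 mM, against 4.02% in water, in experiment 2 it was 4.85% in 0.1 mM, against 5.04% in water, and in experiment 3 it was 4.31% in 0.1 mM and 4.30% in 3 mM, against 4.62% in water. As a share of the counts in the 416 shared identifiers, the members held 5.93% to 7.17% in experiment 1, 7.89% to 8.84% in experiment 2 and 7.47% to 8.24% in experiment 3. No ammonium effect on these shares was tested.

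The order of the members was largely the same in all 17 libraries. Spearman's rho between a library's order and the order of the medians ran between 0.840 and 0.969 (median 0.946), and between 2 libraries from 0.720 to 0.951 (median 0.891). These values are over the 165 members, which share each library's total. Members also moved together on column totals: over the 13530 pairs of members, Pearson's r of log2 CPM across the 17 libraries had a median of 0.443 and was positive for 91.5%. On TMM-scaled CPM the median was 0.006 and 50.7% were positive. The 5 closest pairs on column totals were MIR_4646 with MIR_4825 (r = 0.957), MIR_4621 with MIR_4826 (0.934), MIR_1132 with MIR_4770 (0.934), MIR_4770 with MIR_4861 (0.932) and MIR_4646 with MIR_7121 (0.931). After TMM scaling these were 0.844, 0.892, 0.675, 0.661 and 0.829, in the same order of pairs. They are descriptions over 17 libraries that share depth and experiment.

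MIR_1144 had an uncommon distribution, with 2 separate levels and nothing between them. It stood at 136 TMM-scaled CPM in water at 2 h of experiment 1, 157 in 0.1 mM at 2 h of experiment 2, 154 and 149.5 in 3 mM at 2 h of experiments 2 and 3, 144 in water at 24 h of experiment 3, and 139 and 156 in 3 mM at 24 h of experiments 1 and 3. In the other 10 libraries it stood between 237 and 268. The low libraries thus come from every experiment and from both water and ammonium, though unevenly. Of the 3 mM libraries only that at 2 h of experiment 1, at 252, was not low. Of the 0.1 mM libraries only that at 2 h of experiment 2 was low.

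Exactly those 7 libraries list another identifier, MIR_12671, and the other 10 do not. MIR_12671 was between 95.3 and 134 TMM-scaled CPM where it was listed, and the sum of both identifiers was between 235 and 289 in all 17 libraries. In this sum and those below, an identifier that was not listed was entered as 0, although it need not be absent. In the other 10 libraries the sum is thus MIR_1144 alone. The CV of MIR_1144 was 0.25 alone and 0.053 for the sum. The pair was found by a search, run after the values had been seen, over the 6979 identifiers listed by 3 to 14 of the 17 libraries for the one whose sum with a member varied least. Such a search lowers the CV by its construction, to a median of 0.630 times the member's own over the 165 members. MIR_1144 had the lowest ratio of all, at 0.212, and its next best identifier gave 0.542.

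MIR_4602 showed a similar but weaker arrangement with MIR_20269. MIR_20269 was listed in 5 libraries (water at 2 h of experiments 2 and 3, 3 mM at 2 h of experiment 3, 0.1 mM at 24 h of experiment 2 and 3 mM at 24 h of experiment 3), where MIR_4602 stood between 270.5 and 351 TMM-scaled CPM. In the 12 libraries without it MIR_4602 stood between 396 and 554. The CV was 0.20 for MIR_4602 and 0.075 for the sum, a ratio of 0.373, and the next best identifier gave 0.592. The sum itself ran between 396 and 554. In all, 3 members had a ratio under 0.4, the third being MIR_74 with MIR_4832 (0.335), whose summed level still ran between 298 and 539.5. For 27 of the 165 members the level was lower in every library that listed the chosen identifier than in every library that did not. The search itself favours such a split, since the identifier was chosen from the same values. No such count was made over all shared identifiers, so the 27 cannot be read as a property of the members. Whether the identifiers of a pair stand for related sequences was not tested, as the table gives none.

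**Figure D2:**
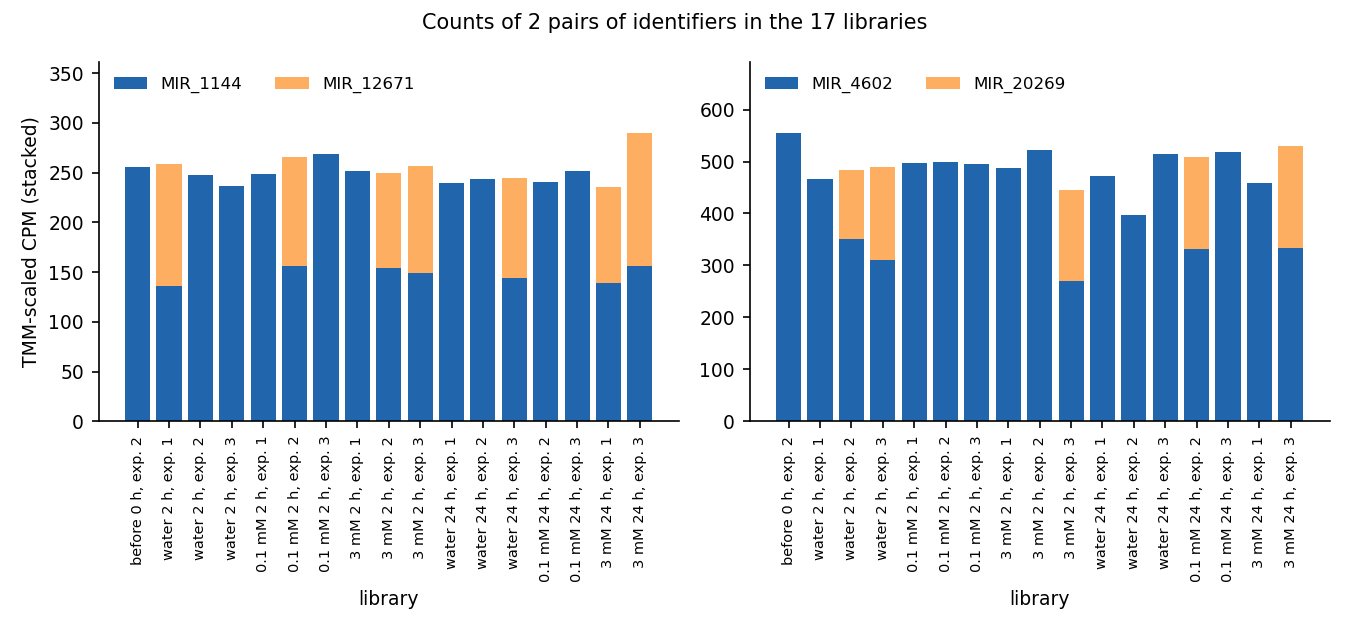
Stacked bars of TMM-scaled CPM in the 17 libraries, ordered by time and dose with the experiment number, for MIR_1144 with MIR_12671 (left) and MIR_4602 with MIR_20269 (right). The blue bar of MIR_1144 is low in the 7 libraries in which the orange bar of MIR_12671 appears, and the total height stays between 235 and 289. An identifier that was not listed is drawn as 0.

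The first comparisons asked whether ammonium shifted these small RNAs within 2 h. After 3 mM ammonium no member passed the test against water: edgeR's quasi-likelihood F test, adjusted by Benjamini and Hochberg over the 416 shared identifiers, called 0 of the 165, beside 0 of 416 (0%). DESeq2 (0.481% of the 416) and limma-voom (0%) also called 0 members. At an unadjusted p under 0.05 the count was 9 members (5.45%), beside 4.09% of the 416. With the experiment as a block in the fit it was 17 members, beside 41 of the 416. Of the members 86 were higher and 79 lower after 3 mM, with a median log2 difference of 0.02 and a median size of 0.13. The 95% interval stayed inside 1 log2 unit on either side for 151 of the 165 (91.5%, beside 86.8% of the 416). In all 3 experiments alike, 26 members were higher and 21 lower than in water (28.5% together, beside 30.3% of the 416). The groups did not overlap for 14 members (8.48%), beside 8.41% of the 416.

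The members with the smallest p in that comparison are given as values, not as changes. MIR_1176 had 149.7, 178 and 189.9 TMM-scaled CPM in experiments 1, 2 and 3 after 3 mM ammonium, against 115, 119 and 139 after water. Its groups did not overlap, and the log2 difference was 0.47 (SE 0.13, 95% interval 0.18 to 0.76, adjusted p = 0.538). MIR_361 had 631, 797 and 667 TMM-scaled CPM after 3 mM, against 518, 415 and 559 after water, again without overlap, with a log2 difference of 0.49 (SE 0.18, 95% interval 0.10 to 0.88, adjusted p = 0.851). MIR_4971 was the lower one, with 107, 60.7 and 90.7 TMM-scaled CPM after 3 mM, against 131, 141 and 163 after water, and a log2 difference of -0.75 (SE 0.24, 95% interval -1.26 to -0.24, adjusted p = 0.791). The adjusted p are those of edgeR, and that of MIR_1176 was the smallest among the members.

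After 0.1 mM ammonium at 2 h, edgeR, DESeq2 and limma-voom likewise called 0 members against water (edgeR 0 of 416, 0%), and 5 members had an unadjusted p under 0.05 in edgeR (3.03%, beside 2.16% of the 416). The median log2 difference was 0.02 and its median size 0.11. Of the 165 intervals 152 stayed inside 1 log2 unit on either side (92.1%, beside 89.2% of the 416). In every experiment 24 members were higher and 11 lower (21.2%, beside 23.8%), and 8 members did not overlap (4.85%, beside 4.33%). MIR_4894 had 129, 107 and 142 TMM-scaled CPM after 0.1 mM, against 65.4, 102 and 89.5 after water, a log2 difference of 0.56 (SE 0.18, 95% interval 0.18 to 0.94, adjusted p = 0.998). MIR_1205 had 199.9, 209.8 and 377 TMM-scaled CPM after 0.1 mM, against 77.3, 135 and 105 after water. Its groups did not overlap, yet the interval was wide, with a log2 difference of 1.31 (SE 0.48, 95% interval 0.28 to 2.34, adjusted p = 0.998). MIR_125 had 324, 356 and 365 TMM-scaled CPM after 0.1 mM, against 591, 466 and 405 after water, so that every 0.1 mM library was below every water library, with a log2 difference of -0.49 (SE 0.20, 95% interval -0.91 to -0.06, adjusted p = 0.998).

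At 24 h the libraries were fewer and came from different experiments, 1 and 3 for 3 mM, 2 and 3 for 0.1 mM and all 3 for water. Against water, edgeR called 0 members after 3 mM (0 of 416, 0%) and 0 after 0.1 mM (0 of 416, 0%), as did DESeq2 and limma-voom. Unadjusted p under 0.05 in edgeR was met by 4 members for 3 mM (2.42%, beside 3.61% of the 416) and by 3 for 0.1 mM (1.82%, beside 1.68%). The median log2 difference was -0.01 for 3 mM and -0.00 for 0.1 mM, and for 144 and 146 of the 165 members the interval stayed inside 1 log2 unit on either side. These were 87.3% and 88.5%, beside 83.7% and 84.9% of the 416. The groups did not overlap for 17 members after 3 mM (10.3%, beside 12.7%) and for 22 after 0.1 mM (13.3%, beside 15.6%). After 3 mM, MIR_4632 had 206 and 159.9 TMM-scaled CPM (experiments 1 and 3), against 246, 352 and 219 after water (experiments 1, 2 and 3), a log2 difference of -0.57 (SE 0.22, 95% interval -1.05 to -0.10, adjusted p = 0.997). MIR_378 had 492 and 618 TMM-scaled CPM after 3 mM, against 466, 446 and 413 after water, a log2 difference of 0.33 (SE 0.14, 95% interval 0.02 to 0.64, adjusted p = 0.997). After 0.1 mM, MIR_1162 had 212 and 275 TMM-scaled CPM (experiments 2 and 3), against 153, 182 and 188 after water, a log2 difference of 0.48 (SE 0.18, 95% interval 0.08 to 0.88, adjusted p = 1). MIR_1105 had 651 and 601 TMM-scaled CPM after 0.1 mM, against 531, 517 and 443 after water, a log2 difference of 0.33 (SE 0.13, 95% interval 0.05 to 0.62, adjusted p = 1). MIR_4853 had 227 and 212 TMM-scaled CPM after 0.1 mM, against 91.8, 119 and 173 after water. Its log2 difference was 0.78 (SE 0.32, 95% interval 0.09 to 1.46, adjusted p = 1), and its water level was lowest in experiment 1, which gave no 0.1 mM library.

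MIR_4971 was among the smallest p of 3 mM against water at both times. At 24 h it had 73.8 and 91.5 TMM-scaled CPM after 3 mM (experiments 1 and 3), against 119.6, 134 and 134 after water, a log2 difference of -0.64 (SE 0.26, 95% interval -1.21 to -0.07, adjusted p = 0.997). All 5 libraries of 3 mM, at 2 h and 24 h, lay between 60.7 and 107.5 and below all 6 libraries of water, which lay between 119.6 and 163. The library before irrigation of experiment 2 stood at 134. The 0.1 mM libraries covered both ranges, with 92.3, 163 and 151 at 2 h and 95.6 and 136 at 24 h. Among the libraries not used to choose the members, before irrigation of experiment 3 stood at 76.1, inside the range of 3 mM. There 3 mM at 24 h of experiment 2 stood at 89.9, also inside it (both scaled as described below). The ranges over both times were compared after the values had been seen. The share of all shared identifiers that separate in this way was not counted. No contrast of 3 mM with water over both times was fitted. With both doses and times of ammonium pooled against water, the log2 difference of MIR_4971 was -0.41 (SE 0.15, 95% interval -0.74 to -0.09, adjusted p = 0.877).

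Pooling the 10 ammonium libraries against the 6 water libraries gave the narrowest intervals of the ammonium comparisons, and still edgeR called 0 members (0 of 416, 0%), with 8 at an unadjusted p under 0.05 (4.85%, beside 3.61%). For 161 of the 165 members the interval stayed inside 1 log2 unit on either side (97.6%, beside 96.6% of the 416). MIR_4830 had the smallest p, with a lowest, median and highest TMM-scaled CPM of 183, 210.2 and 242 in the ammonium libraries, against 113, 155 and 227 in the water libraries. The 2 sets overlapped, through the water library at 24 h of experiment 2, and the log2 difference was 0.41 (SE 0.13, 95% interval 0.13 to 0.69, adjusted p = 0.877). MIR_1162 followed with a log2 difference of 0.30 (SE 0.10, 95% interval 0.07 to 0.53, adjusted p = 0.877). DESeq2 (0.24% of the 416) and limma-voom (0%) called 0 members.

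**Figure D3:**
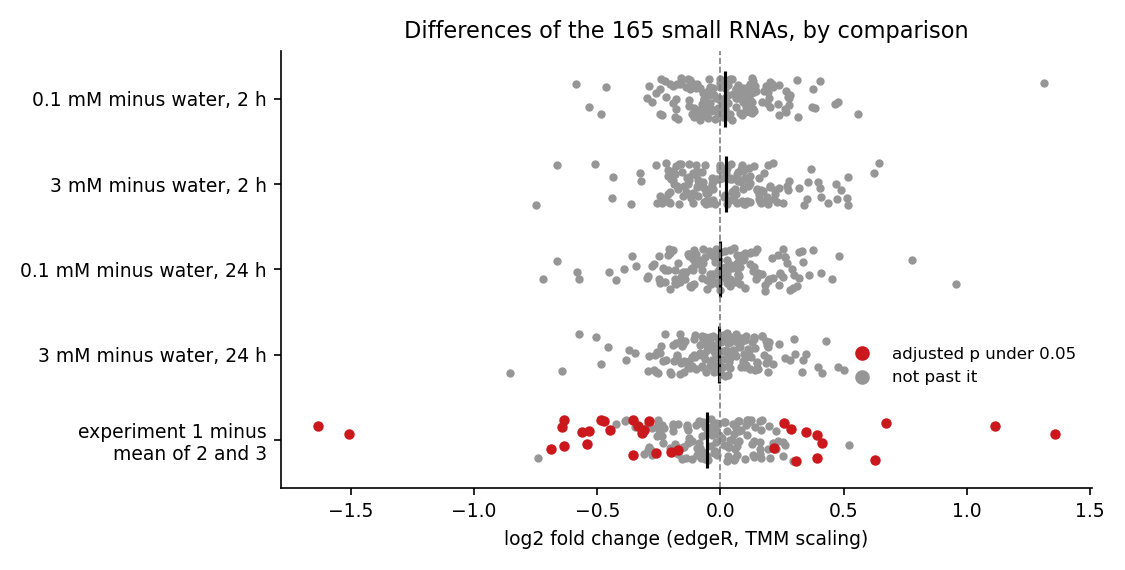
Log2 fold changes (horizontal axis, edgeR with TMM scaling) of the 165 members in 4 ammonium comparisons and between experiment 1 and the mean of experiments 2 and 3. Each point is a member, the black line is the median, and red points passed an adjusted p under 0.05: 0 in each ammonium comparison and 33 between experiments.

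Between the doses, edgeR called 0 members at 2 h (0 of 416, 0%) and 0 at 24 h (0 of 416, 0%), with 6 and 2 members at an unadjusted p under 0.05 (3.64% and 1.21%, beside 3.12% and 2.40% of the 416), and DESeq2 (0.24% and 0.481% of the 416) and limma-voom (0%) called 0. At 2 h the groups did not overlap for 11 members (6.67%, beside 7.93%). MIR_1176 had 149.7, 178 and 189.9 TMM-scaled CPM after 3 mM, against 142, 114 and 126 after 0.1 mM, a log2 difference of 0.44 (SE 0.13, 95% interval 0.15 to 0.73, adjusted p = 0.884). MIR_392 had 164, 198 and 137 TMM-scaled CPM after 3 mM, against 235, 217 and 326 after 0.1 mM, a log2 difference of -0.64 (SE 0.21, 95% interval -1.10 to -0.18, adjusted p = 0.989). MIR_4971 had a log2 difference of -0.65 (SE 0.24, 95% interval -1.16 to -0.14, adjusted p = 0.989). At 24 h both doses share only experiment 3, so dose and experiment are partly mixed. There MIR_1150 had 238 and 249 TMM-scaled CPM after 3 mM, against 166 and 203 after 0.1 mM, a log2 difference of 0.40 (SE 0.14, 95% interval 0.09 to 0.71, adjusted p = 0.999), and MIR_1162 had a log2 difference of -0.44 (SE 0.20, 95% interval -0.87 to -0.00, adjusted p = 0.999). MIR_1144, described above with MIR_12671, had 139 and 156 TMM-scaled CPM after 3 mM, against 241 and 252 after 0.1 mM, a log2 difference of -0.74 (SE 0.35, 95% interval -1.50 to 0.02, adjusted p = 0.999). The sum of MIR_1144 and MIR_12671 averaged 262 ± 38.1 TMM-scaled CPM after 3 mM and 246 ± 7.46 after 0.1 mM (SD, n = 2 each), a difference within the spread of the 3 mM libraries. After 0.1 mM MIR_12671 was not listed and was entered as 0.

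The sampling time gave no called member either. Between 24 h and 2 h, edgeR called 0 members in water, 0 in 0.1 mM and 0 in 3 mM (each 0 of 416, 0%), and DESeq2 (0%, 0.721% and 0.24% of the 416) and limma-voom (0%) called 0. The members with an unadjusted p under 0.05 in edgeR were 4 in water (2.42%, beside 4.81%), 10 in 0.1 mM (6.06%, beside 5.77%) and 3 in 3 mM (1.82%, beside 2.88%). In water the times did not overlap for 7 members (4.24%, beside 6.01%). There MIR_1176 had 191, 150.1 and 183 TMM-scaled CPM at 24 h, against 115, 119 and 139 at 2 h, without overlap and with a log2 difference of 0.49 (SE 0.13, 95% interval 0.20 to 0.78, adjusted p = 0.511). MIR_4894 had 119.9, 111 and 157 TMM-scaled CPM at 24 h, against 65.4, 102 and 89.5 at 2 h, also without overlap, with a log2 difference of 0.60 (SE 0.18, 95% interval 0.22 to 0.98, adjusted p = 0.511). MIR_4853 was the lower one, with 91.8, 119 and 173 TMM-scaled CPM at 24 h, against 175, 305 and 183 at 2 h, and a log2 difference of -0.79 (SE 0.28, 95% interval -1.40 to -0.17, adjusted p = 0.864).

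In 0.1 mM ammonium MIR_1208 had 149 and 148 TMM-scaled CPM at 24 h (experiments 2 and 3), against 110.2, 96.1 and 95.5 at 2 h (experiments 1, 2 and 3), a log2 difference of 0.56 (SE 0.19, 95% interval 0.16 to 0.97, adjusted p = 0.678). MIR_4633 had a log2 difference of 0.62 (SE 0.22, 95% interval 0.14 to 1.10, adjusted p = 0.685) and MIR_1191 of 1.03 (SE 0.37, 95% interval 0.22 to 1.83, adjusted p = 0.685). Of these 3, MIR_1191 varied most within a time, with 381 and 249.8 TMM-scaled CPM at 24 h and 113, 139 and 212 at 2 h. In 3 mM ammonium MIR_361 had 486 and 468 TMM-scaled CPM at 24 h (experiments 1 and 3), against 631, 797 and 667 at 2 h, a log2 difference of -0.55 (SE 0.20, 95% interval -0.99 to -0.11, adjusted p = 0.998). MIR_389 had a log2 difference of 0.27 (SE 0.11, 95% interval 0.05 to 0.50, adjusted p = 0.998) and MIR_4632 of -0.48 (SE 0.22, 95% interval -0.96 to -0.01, adjusted p = 0.998).

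With all treatments pooled, the 7 libraries at 24 h against the 9 at 2 h, edgeR called 1 of the 416 (0.24%), and it is no member. Of the members 11 had an unadjusted p under 0.05 (6.67%, beside 6.49%), and 18 with the experiment as a block, beside 45 of the 416. MIR_378 had a lowest, median and highest TMM-scaled CPM of 413, 466 and 618 at 24 h, against 331, 408 and 503.5 at 2 h, with a log2 difference of 0.26 (SE 0.08, 95% interval 0.09 to 0.43, adjusted p = 0.362). For MIR_389 these were 274, 299 and 355 at 24 h, against 243, 268 and 300.2 at 2 h, with a log2 difference of 0.19 (SE 0.06, 95% interval 0.06 to 0.32, adjusted p = 0.362). MIR_1176 had 142, 179.7 and 191 at 24 h, against 114, 139 and 189.9 at 2 h, with a log2 difference of 0.27 (SE 0.08, 95% interval 0.08 to 0.45, adjusted p = 0.362). All 3 pairs of ranges overlapped. DESeq2 (1.2% of the 416) and limma-voom (0.24%) called 0 members. For 163 of the 165 members the interval stayed inside 1 log2 unit on either side (98.8%, beside 97.4% of the 416).

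MIR_1176 had the smallest p of any member in 3 of these comparisons and in the test of any difference among the 7 groups, and these comparisons share libraries. In time and dose order it averaged 156 TMM-scaled CPM before irrigation (1 library), then 124 ± 12.6 after water, 127 ± 13.6 after 0.1 mM and 173 ± 20.7 after 3 mM at 2 h (SD, n = 3 each). At 24 h it averaged 175 ± 21.8 after water (SD, n = 3), 151 ± 12.5 after 0.1 mM and 180.1 ± 0.6 after 3 mM (SD, n = 2 each). The low groups were thus water and 0.1 mM at 2 h. Over the 7 groups edgeR called 0 members (0 of 416, 0%), with 6 at an unadjusted p under 0.05 (3.64%, beside 4.33%), MIR_1176, MIR_378 and MIR_361 leading, and an adjusted p of 0.929 for MIR_1176. DESeq2, the other tool, called 2 members in this test, MIR_1176 (adjusted p = 0.0147) and MIR_378 (adjusted p = 0.0331), beside 8 of the 416 (1.92%), while limma-voom called 0 (0%).

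Whether the ammonium effect itself differed between 24 h and 2 h was tested by the interaction. For 3 mM and for 0.1 mM edgeR called 0 members (each 0 of 416, 0%), with 2 members each at an unadjusted p under 0.05 (1.21%, beside 3.61% and 1.44% of the 416), and DESeq2 and limma-voom called 0 (0% of the 416 each). These contrasts were the least precise: at 3 mM the interval stayed inside 1 log2 unit on either side for only 119 members (72.1%, beside 68.0% of the 416). For 3 mM the difference of the log2 effects was -0.84 (SE 0.29, 95% interval -1.48 to -0.21, adjusted p = 0.998) for MIR_4632, 0.85 (SE 0.38, 95% interval 0.03 to 1.67, adjusted p = 0.998) for MIR_1251 and -0.43 (SE 0.20, 95% interval -0.87 to 0.01, adjusted p = 0.998) for MIR_1176. For 0.1 mM it was -1.74 (SE 0.72, 95% interval -3.28 to -0.19, adjusted p = 0.996) for MIR_1205, -0.42 (SE 0.18, 95% interval -0.80 to -0.03, adjusted p = 0.996) for MIR_1150 and -0.57 (SE 0.26, 95% interval -1.14 to -0.00, adjusted p = 0.996) for MIR_4894.

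The group before irrigation had 1 of the 17 libraries, from experiment 2, so it was set beside the other 5 libraries of that experiment without a test. Its TMM-scaled CPM lay below the range of these 5 for 25 of the 165 members, beside 64 of the 416, and above it for 30, beside 82 of the 416. The median log2 difference of the members from the mean of the 5 was -0.01. No member differed by more than 1 log2 unit, beside 5 of the 416. MIR_1259 was the lowest relative to the others, at a log2 difference of -0.95, and MIR_1307 (0.79) and MIR_4918 (0.77) the highest.

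The libraries of experiment 1 stood apart, while those of experiments 2 and 3 overlapped. In the first principal component of log2 TMM-scaled CPM, which held 31.5% of the variance, the 5 libraries of experiment 1 scored between -4.78 and -2.05, the 6 of experiment 2 between 0.08 and 1.57 and the 6 of experiment 3 between 0.86 and 2.02. The library of water at 2 h of experiment 1 was the farthest out, and both water libraries of experiment 1 (-4.78 and -2.90) lay beyond its 3 ammonium libraries (-2.67, -2.38 and -2.05). The second component (11.5%) ran between 0.47 and 2.16 in experiment 2 and between -2.68 and 0.60 in experiment 3. On column totals the first component held 44.8%, and experiment 1 again stood apart, between -6.65 and -1.61 against 1.21 to 3.58 in experiment 2 and 0.52 to 1.99 in experiment 3. There the order within experiment 1 was turned round, with its ammonium libraries between -6.65 and -4.63 and its water libraries at -2.81 and -1.61.

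**Figure D4:**
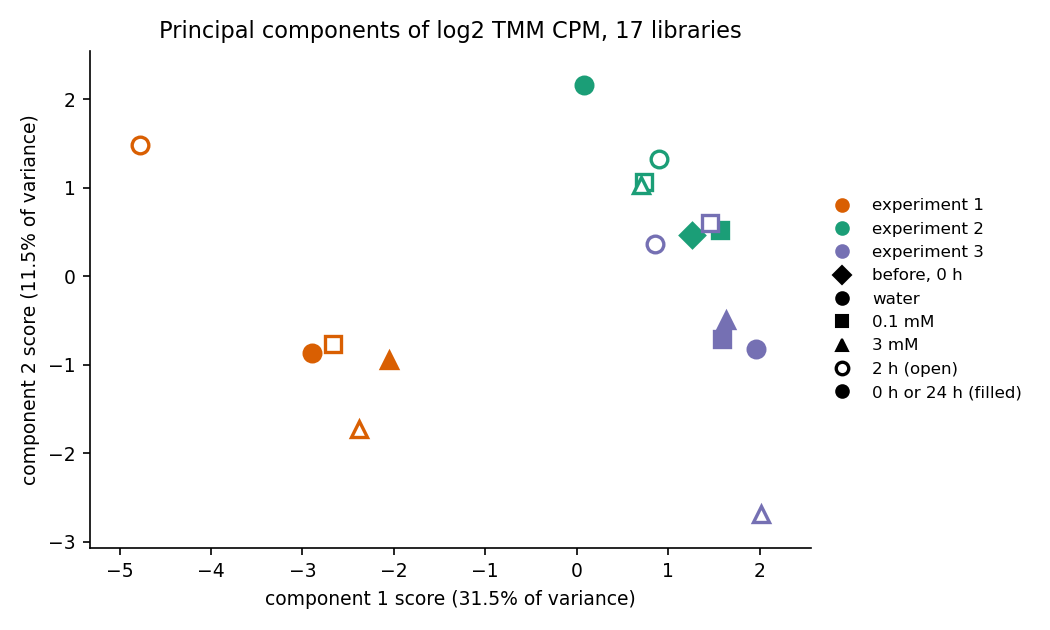
Scores of the 17 libraries on the first 2 principal components of log2 TMM-scaled CPM over the 165 members, coloured by experiment, with symbols for the irrigation and open symbols for 2 h. The 5 libraries of experiment 1 lie left of all others on the first component, between -4.78 and -2.05, and within experiment 1 its water libraries, at -4.78 and -2.90, lie left of its ammonium libraries.

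In a fit with group and experiment, 33 of the 165 members (20.0%) differed among the 3 experiments at an adjusted p under 0.05, beside 86 of the 416 (20.7%). The share of members is thus that of all shared identifiers. By the estimate for experiment 1 minus the mean of experiments 2 and 3, 12 of the 33 were higher in experiment 1 and 21 lower, beside 42 (10.1%) higher and 44 (10.6%) lower of the 416. The split moved with the scaling: on column totals, where the median difference of all members was -0.31 and not -0.05, 64 members passed (beside 37.5% of the 416), 2 higher and 62 lower. DESeq2 called 54 (beside 33.4%) and limma-voom 33 (beside 20.9%). Experiment 1 against experiment 3 gave 39 members (beside 22.4% of the 416) and against experiment 2 gave 29 (beside 18.3%). Between experiments 3 and 2 edgeR called 0 members (0 of 416, 0%), with 14 at an unadjusted p under 0.05 (8.48%, beside 12.7%). These 3 contrasts and the estimate for experiment 1 were added after the data had been seen. In the whole table after a filter on low counts (20258 identifiers, 79.3% of the values 0), where the common dispersion was 9.58, against 0.0568 over the 416, edgeR called 0 of the members among the experiments (beside 0.0296% of the 20258). Leaving out 1 library lowered the count of 33 by over 1.5 times in 5 cases, each time with fewer of the 416. In experiment 1 it was 18 without water at 2 h (beside 14.2% of the 416), 21 without 0.1 mM at 2 h (beside 16.6%), 20 without 3 mM at 2 h (beside 12.7%) and 20 without 3 mM at 24 h (beside 14.7%), and in experiment 3 it was 20 without 3 mM at 24 h (beside 14.9%).

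MIR_74 had the smallest p. In experiment 1 it stood at 340.4, 264, 298, 315.5 and 267 TMM-scaled CPM in water, 0.1 mM and 3 mM at 2 h and in water and 3 mM at 24 h, against 100.3 to 126 in the 6 libraries of experiment 2 and 92.9 to 143 in the 6 of experiment 3. All 5 libraries of experiment 1 lay above the other 12, whatever the treatment or time. The log2 difference was 1.36 (SE 0.09, 95% interval 1.15 to 1.57, adjusted p = 1.48e-05) by edgeR, and the mean TMM-scaled CPM of experiment 1 was 2.60 times that of the other 12 libraries. MIR_92 had the same direction, with 188 to 319 TMM-scaled CPM in experiment 1, against 72.1 to 115 in experiment 2 and 104 to 132 in experiment 3, and a log2 difference of 1.11 (SE 0.14, 95% interval 0.81 to 1.42, adjusted p = 0.000833). For both members the search described above chose MIR_4832. In experiment 1 MIR_4832 was not listed in 3 mM at 2 h or in either water library. Summed with MIR_74 it ran between 298 and 539.5 TMM-scaled CPM in experiment 1. In experiments 2 and 3 that sum ran 325 to 485 and 321 to 460, so the ranges overlapped. For MIR_74 the ratio was 0.335 and the next best identifier gave 0.348, and for MIR_92 these were 0.445 and 0.450. A search for the least varying sum favours such an overlap by its construction, and the sum was not tested.

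MIR_1608 had the opposite pattern. Its 5 libraries of experiment 1 lay between 37.2 and 58.3 TMM-scaled CPM, against 107 to 171 in experiment 2 and 101 to 222 in experiment 3, and the log2 difference was -1.63 (SE 0.12, 95% interval -1.90 to -1.37, adjusted p = 3.75e-05). MIR_4643 was lower in experiment 1 too, with 106 to 174 TMM-scaled CPM, against 259.7 to 722 in experiment 2 and 304 to 735 in experiment 3, and a log2 difference of -1.51 (SE 0.25, 95% interval -2.06 to -0.96, adjusted p = 0.00766). Its level within experiments 2 and 3 was uneven: 0.1 mM at 24 h of experiment 2 and 0.1 mM at 2 h of experiment 3 held 722 and 735, while no other library of these experiments exceeded 516. For MIR_1608 the search described above chose MIR_412, listed in exactly the 5 libraries of experiment 1 at 66.8 to 106 TMM-scaled CPM. Their sum ran between 101 and 222 over the 17 libraries, at a ratio of 0.496, and the next best identifier gave 0.519. MIR_412 was also chosen for MIR_4840 (0.498), and MIR_871, listed in the same 5 libraries, for MIR_4844 (0.496). For a member low in 1 experiment the search itself favours such identifiers.

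**Figure D5:**
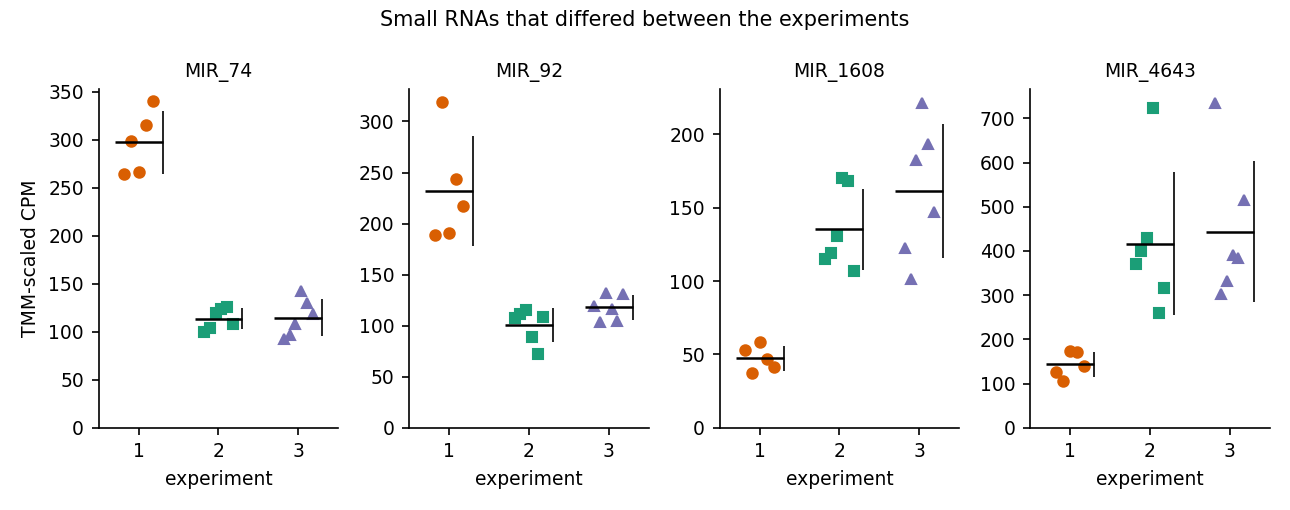
TMM-scaled CPM of MIR_74, MIR_92, MIR_1608 and MIR_4643 in the libraries of experiments 1 (n = 5), 2 (n = 6) and 3 (n = 6), each point a library, with the mean (horizontal line) and SD (vertical line). The 5 libraries of experiment 1 lie above the other 12 for MIR_74 and MIR_92 and below them for MIR_1608 and MIR_4643.

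The other members named by their p had smaller differences. Higher in experiment 1 were MIR_1226, at a log2 difference of 0.35 (SE 0.07, adjusted p = 0.0066), MIR_4791, at 0.67 (SE 0.14, adjusted p = 0.0194), and MIR_1203, at 0.39 (SE 0.09, adjusted p = 0.0194). Lower in experiment 1 were MIR_4946, at -0.69 (SE 0.12, adjusted p = 0.00662), MIR_4840, at -0.54 (SE 0.08, adjusted p = 0.00452), and MIR_1251, at -0.53 (SE 0.10, adjusted p = 0.00965). The same direction held for MIR_4826, at -0.48 (SE 0.10, adjusted p = 0.0136), MIR_4621, at -0.36 (SE 0.08, adjusted p = 0.0224), and MIR_853, at -0.32 (SE 0.07, adjusted p = 0.0066). For MIR_4844 it was -0.31 (SE 0.06, adjusted p = 0.0178). MIR_7121 had an estimate of -0.20 (SE 0.07, adjusted p = 0.0223), but there experiment 2 stood apart and not experiment 1. Experiment 2 held 247 to 310 TMM-scaled CPM, against 180 to 236 in experiment 1 and 186 to 239 in experiment 3. All of these p are from edgeR's test of any difference among the experiments. Of the 33 members 10 were called in every refit that left out 1 library, whereas MIR_4844, MIR_4791, MIR_1203, MIR_7121 and MIR_4621 lost their call in 1 to 4 of the 17 refits, with adjusted p of up to 0.0726. Over all members 10 had experiment 1 fully outside the range of the other 12 libraries on TMM-scaled CPM, 6 above and 4 below (6.06%, beside 6.73% of the 416).

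Experiment 1 differs from the others in which groups it holds and in its library composition. It has no library before irrigation and none of 0.1 mM at 24 h among the 17. The members' share was 3.05% to 3.55% in its 3 ammonium libraries and 4.02% and 4.46% in its water libraries. Without its 3 libraries of smallest share 4 members were called (MIR_74, MIR_1608, MIR_92 and MIR_853, 2.42% of the 165, beside 4.09% of the 416), and among the 9 libraries at 2 h alone, where each experiment has the same 3 groups, 5 were called (MIR_74, MIR_1608, MIR_92, MIR_4840 and MIR_4643, 3.03% of the 165, beside 4.33% of the 416). The sign of the difference was the same in the 2 h libraries for all 33. What in the experiments moved with these differences was not tested, and the labels record no extraction or sequencing batch.

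The 4 libraries that the choice of members did not use can be set beside these differences. They listed 72 members (before irrigation, experiment 1), 38 (before irrigation, experiment 3), 28 (0.1 mM at 24 h, experiment 1) and 28 (3 mM at 24 h, experiment 2) of the 165. Of all 416 shared identifiers they listed 203, 112, 72 and 70. No member was listed by all 4, 54 were listed by none, 66 by 1, 35 by 2 and 10 by 3. The listed members stood at a median of 0.949, 2.03, 2.20 and 6.93 times their 17-library median CPM, and, once each library was scaled so that its listed members matched their TMM-scaled medians in the middle, 70, 35, 28 and 28 of them lay within 2 times that median.

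The 33 members that differed between experiments were looked up in the same libraries. The library before irrigation of experiment 1 listed 13 of the 33, and 11 of these were nearer to the experiment 1 mean than to that of the other experiments, beside 31 of the 59 other members it listed. In 0.1 mM at 24 h of experiment 1 these were 4 of 7, beside 6 of 21. In the libraries of other experiments they were 0 of 6, beside 13 of 32 (before irrigation, experiment 3), and 0 of 5, beside 10 of 23 (3 mM at 24 h, experiment 2). MIR_74 stood at a scaled CPM of 289 before irrigation in experiment 1 and 104 before irrigation in experiment 3. MIR_92 stood at 220.1 and 118 in the same libraries, and MIR_1608 at 28.9 in the first, which lies below all 17 libraries. No test was made on these 4 libraries.

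The numbers of the identifiers carry the order in which libraries first list them. Of the members 72 are numbered between 74 and 1608 and are first listed by the library before irrigation of experiment 1, and 93 are numbered between 4320 and 7132 and are first listed by 0.1 mM at 2 h of experiment 1. The first set is thus the 72 members that the library before irrigation of experiment 1 lists.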

How the data were processed

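Small RNA was sequenced from pine roots in 21 libraries, and the authors deposited whole-number read counts per identifier, not normalised. The submitters' processing notes name bcl2fastq and edgeR, without versions. The small RNA caller, its filters and the genome build were not given in the sources used here. No sequences were used.

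Levels are CPM on column totals, or TMM-scaled CPM where named. The main test was edgeR 4.0.16 (R 4.3.3, quasi-likelihood F test, two-sided) on the counts of the 416 identifiers listed in all 17 libraries, in 1 fit of the 7 groups, with Benjamini-Hochberg adjustment over the 416 and a threshold of 0.05. Experiments were tested in a fit of group plus experiment. Standard errors are Wald errors from the same fit. The scripts were tested on simulated data. At totals of 5947601 to 9603954 counts the expected counting error (median CV 0.0244) was below the members' spread over libraries (median CV 0.144, TMM-scaled). That counting error does not cover amplification, and the 1 to 3 libraries per group limit the precision.

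Equal replicate numbers share an experiment, per the labels' protocols. Deviations from the group means correlated at a mean of 0.254 within experiments (35 pairs of libraries) and -0.122 between them (71 pairs). The main test has no block, and the fit with it is an alternative.

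Named members were the 10 highest, those past each threshold (at most 15) or otherwise the 3 of smallest p, the 5 most and 5 least variable, those nearest each limit and the 5 closest pairs. MIR_12671, MIR_20269, MIR_4832, MIR_412, MIR_871, MIR_4602, MIR_1259, MIR_4918 and the 5 steadiest on TMM-scaled CPM were named after their values were seen. The members, lists and tests were all chosen with earlier results of these data known. Alternatives were other scalings, DESeq2 1.42.0, limma-voom (limma 3.58.1), the whole table, all 21 libraries, other limits, and each library or experiment left out.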

Additional observations from a re-analysis of the deposited data

Results flagged for a closer look

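In 10 of 171 checks over the 57 named identifiers (each in 3 experiments), 1 library of an experiment stood apart from the others of that experiment by Dixon's criterion. Chance alone flags about 1 in 20 such checks, and no explanation was tested. Values are TMM-scaled CPM.

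The libraries that stood high were 722 for MIR_4643 in 0.1 mM at 24 h of experiment 2 (the other 5 libraries of that experiment 259.7 to 429), 297 for MIR_4633 in the same library (others 218 to 235), 309.6 for MIR_7121 in 0.1 mM at 2 h of experiment 2 (others 247 to 268), 355 for MIR_389 in 3 mM at 24 h of experiment 3 (others 268 to 299) and 119 for MIR_1307 in 3 mM at 24 h of experiment 1 (others 92.6 to 98.0).

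The libraries that stood low were 26.0 for MIR_4510 in 3 mM at 2 h of experiment 3 (others 223 to 312), 452 for MIR_4769 before irrigation in experiment 2 (others 566 to 584) and 252 for MIR_4621 in water at 2 h of experiment 3 (others 329 to 369.6). In water at 2 h of experiment 1 MIR_4767 stood at 441 (others 522 to 543) and MIR_357 at 362 (others 465 to 492).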

How the results depend on the processing

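With the experiment as a replicate block, 0 members were called in each ammonium and time comparison and among the 7 groups, as without it, and the smallest adjusted p of a member was 0.0703 (24 h against 2 h, all treatments pooled). The block changed no call, but it moved the counts at an unadjusted p under 0.05 in edgeR. For 3 mM against water at 2 h there were 17 members with it and 9 without. For 24 h against 2 h over all treatments there were 18 and 11. The count stayed at 4 for 3 mM against water at 24 h and fell from 2 to 1 between the doses at 24 h. Among these comparisons the count of called members was 0 under every scaling, tool and omission that was run, with 1 exception, the 2 members that DESeq2 called among the 7 groups. Column totals moved the median of all members by over 0.1 in several contrasts, for example to -0.30 for 3 mM against water at 24 h, where it was -0.01 with TMM.

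The 33 members called among the experiments (beside 86 of the 416 tested) became 64 on column totals (beside 156), 54 with DESeq2 (139), 0 in the whole table after a filter on low counts (6 of 20258 tested), 0 with no filter (6 of 23475) and 0 with all 21 libraries (10 of 8537). They became 18 to 36 when single libraries were left out (beside 53 to 86 of the 416), 0 without experiment 1 (0), 23 without experiment 2 (55) and 13 without experiment 3 (39). They became 4 without 3 libraries of experiment 1 (beside 17) and 5 with the libraries at 2 h only (18), both alternatives chosen after seeing the data. The common dispersion was 0.0568 over the 416 identifiers and 9.58 over the filtered whole table, in which 79.3% of the values are 0. The cause of the lost calls was otherwise not tested.

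With all 21 libraries in the whole table, 8 named log2 differences changed sign. MIR_378 was at -0.25 and MIR_1105 at -0.26 (3 mM and 0.1 mM against water at 24 h), MIR_1162 at -0.12 (0.1 mM at 24 h) and -0.00586 (ammonium pooled), and MIR_389 at -0.28 (24 h against 2 h in 3 mM). For 24 h against 2 h over all treatments, MIR_1176 and MIR_378 were both at -0.12 and MIR_389 at -0.19. That fit includes the 4 libraries that list 28 to 72 of the members, and the cause was not tested. None of these differences had passed the test. The number of members, 165, was 124 to 203 with other limits and 165 to 180 with single libraries left out.

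The rule keeps only identifiers listed in all 17 libraries, so changes that end a listing are not covered. At 24 h and before irrigation the groups hold 1 to 3 libraries, and intervals are wide.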
